A study of Mus musculus with 6 samples.

Results

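The miR-23/27/24 microRNAs are made from a pair of paralogous clusters, and in the mouse further hairpins, miR-3074, face the miR-24 hairpins from the other strand. Their products were followed in small RNA libraries of the cerebral cortex. The 9 products listed for these loci were found by exact name among the 1182 features of the deposited table, and all 9 passed the filter on low counts that left 541 miRNAs to test. Libraries came from Fmr1 knockout (KO) adult male mice, 3 libraries, and from wild-type (WT) adult males of matched age, also 3 libraries, with no treatment in either genotype. The product of Fmr1, FMRP, binds RNA in neurons and its loss causes fragile X syndrome in humans, and the comparison asks which miRNAs differ in its absence. RNA was taken from whole cortex, so neurons, glia and vessels are mixed, and in such samples fewer cells of a type cannot be told apart from less RNA per cell. The Fmr1 allele and the exact age are not in the labels, and the miRNA table holds no value for the Fmr1 transcript itself, so the KO label was not checked against it.

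A miRNA hairpin gives a 5p and a 3p strand, of which one usually enters Argonaute as the guide, and the guide recognises messenger RNAs mainly through its seed, bases 2 to 8. The 3p strands of miR-23, miR-27 and miR-24 are the established guides. They are widely expressed and are known from blood vessels, blood cells, muscle and brain: miR-27 represses the adipogenic receptor PPARγ in mouse and human cells, miR-24 represses cell cycle genes in human cells, and miR-23 represses glutaminase in human cells.

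The sequences show which products can be told apart by their reads. RefSeq (build GRCm38.p6, the assembly of mm10) held 8 of the 9 mature sequences, mmu-miR-23b-3p being the one not matched. They are printed 5′ to 3′ with the seed in capitals.
mmu-miR-23a-3p: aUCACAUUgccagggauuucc
mmu-miR-27a-3p: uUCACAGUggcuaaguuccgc
mmu-miR-27b-3p: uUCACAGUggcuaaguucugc
mmu-miR-24-3p: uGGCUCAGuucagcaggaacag
mmu-miR-24-1-5p: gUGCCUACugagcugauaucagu
mmu-miR-24-2-5p: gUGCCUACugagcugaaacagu
mmu-miR-3074-5p: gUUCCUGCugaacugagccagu
mmu-miR-3074-2-3p: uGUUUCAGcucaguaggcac
The miR-27a-3p and miR-27b-3p strands share a seed and differ by 1 substitution, C19U, counted from the 5′ end with the base of miR-27a-3p first. How many mismatches the counting allowed is not stated, so these paralogs may share reads. Without a sequence for miR-23b-3p, the same could not be checked for miR-23a-3p and miR-23b-3p. Both 5p strands of miR-24 share a seed and their first 16 bases. Mature miR-24-3p and miR-3074-5p each have a copy in both clusters, so their reads cannot be assigned to either.

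The first cluster lies on the plus strand of chromosome 8, with hairpins Mir23a (chr8:84208518-84208592), Mir27a (chr8:84208672-84208758) and Mir24-2 (chr8:84208815-84208921). GENCODE M21 places no other gene over Mir23a and Mir27a, while Mir24-2 overlaps an exon of the long noncoding RNA Gm26532. The second lies on the plus strand of chromosome 13 within the protein-coding gene 2010111I01Rik, with Mir23b in an intron (chr13:63300484-63300557) and with Mir27b (chr13:63300712-63300784) and Mir24-1 (chr13:63301208-63301275) over annotated exons of that gene. On the other strand an intron of Fancc, a DNA repair gene, spans all 3 of these hairpins. Both clusters are compact, spanning 404 and 792 bases on chromosomes 8 and 13.

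Hairpin Mir3074-2 (chr8:84208825-84208907, minus strand) faces Mir24-2, and Mir3074-1 (chr13:63301199-63301283, minus strand) faces Mir24-1. The opposed mature strands are printed below with the complementary stretch in capitals, because the opposed products had near-equal counts.
miR-24-3p: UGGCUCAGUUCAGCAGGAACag
miR-3074-5p: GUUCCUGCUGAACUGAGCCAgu
miR-24-2-5p: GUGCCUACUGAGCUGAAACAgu
miR-3074-2-3p: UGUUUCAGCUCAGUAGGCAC
In each pair 20 bases are perfectly complementary. For miR-3074-2-3p this is its whole length, and for the other 3 strands it is the first 20 of 22 bases.

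Total counts ranged from 11182888 to 14385332 reads in the KO libraries and from 13225790 to 15733876 in the WT libraries. The KO libraries were more spread out, with a median SD of log2 CPM over the 541 miRNAs of 0.396 in KO, against 0.14 in WT. KO replicate 3 stood farthest from the rest: its median absolute deviation from the other 5 libraries was 0.476 log2 units, against 0.248 to 0.294 in the other KO libraries and 0.167 to 0.176 in the WT libraries. Fold changes and ratios of the 9 products that moved by over 1.5 times without this library are also given without it. Levels below are CPM, reads scaled to a common library size with TMM, without a length term because a read spans the whole miRNA.

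The products covered a wide range of levels, and the guide strands did not stand together. Over the 6 libraries miR-24-3p was the most abundant, at a mean of 5024 CPM, which ranked it 29th of the 541 miRNAs tested, and miR-3074-5p followed at 5019 CPM. Next came miR-27b-3p at 3352 CPM, below both in every library. A gap of 32.6 times separated it from a group of 4 products near the same level, miR-24-2-5p at 102.9 CPM, miR-3074-2-3p at 102.4 CPM, miR-27a-3p at 99.95 CPM and miR-23b-3p at 96.9 CPM. Ranges of neighbours in this group overlapped, and miR-27a-3p exceeded miR-23b-3p in 2 of 6 libraries, so their order is not fixed beyond the spread. Below them lay miR-23a-3p at 49.2 CPM and miR-24-1-5p at 20.1 CPM, each with ranges apart from the product above it.

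**Figure D1:**
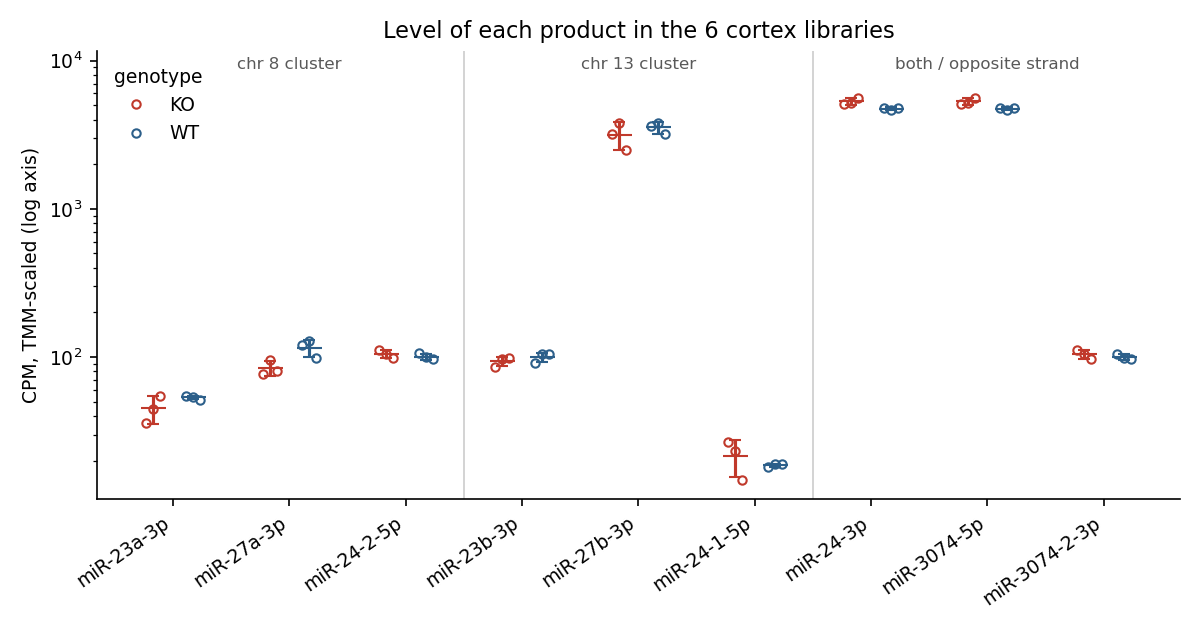
CPM of each product on a log axis, with KO libraries in red and WT libraries in blue; circles are libraries and bars are the mean and SD (n = 3 per genotype). The miR-24-3p, miR-3074-5p and miR-27b-3p levels lie between 2478 and 5621 CPM, and all other products at 128 CPM or less.

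Guides of 1 cluster differed more in level on chromosome 13 than on chromosome 8. There were 37.0, 39.3 and 25.1 reads of miR-27b-3p per read of miR-23b-3p in the KO libraries, against 39.9, 36.7 and 30.5 in the WT libraries. On chromosome 8 the ratio of miR-27a-3p to miR-23a-3p was 2.15, 2.14 and 1.47 in the KO libraries, against 2.23, 2.37 and 1.91 in the WT libraries. The chromosome 13 ratio thus exceeded the chromosome 8 ratio in every library of both genotypes, while KO and WT overlapped in both ratios.

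The counts of miR-3074 followed those of miR-24 almost read for read. For miR-3074-5p there were 75101, 61270 and 68115 reads in the KO libraries, against 73318, 62609 and 73085 in the WT libraries. For miR-24-3p, annotated on the opposite strand, there were 75152, 61318 and 68191 reads in KO, against 73396, 62661 and 73171 in WT. The antisense product was therefore lower by 48 to 76 reads in the KO libraries and by 52 to 86 reads in the WT libraries, that is, at 99.89% to 99.93% of miR-24-3p in KO, against 99.88% to 99.92% in WT. The use of strand in counting is not stated, and these counts cannot be assigned to a strand: miR-3074-5p gives no evidence beyond that of miR-24-3p.

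The other arm behaved the same way. Reads of miR-3074-2-3p numbered 1626, 1244 and 1184 in the KO libraries, against 1611, 1348 and 1466 in the WT libraries, where miR-24-2-5p had 1634, 1252 and 1192 in KO, against 1615, 1353 and 1470 in WT. The shortfall was 8 reads in each KO library and 4 or 5 reads in each WT library. As a log2 ratio the difference was -0.0044, with groups that did not overlap and an exact two-sided permutation p of 0.1, the smallest that 3 against 3 can give (adjusted p = 0.8 over 8 ratios). On the chromosome 13 copy, miR-3074-1-3p was further from its partner, at 77.8% to 91.5% of miR-24-1-5p in the KO libraries, against 88.2% to 95.3% in the WT libraries.

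Near-equal counts were not general among the opposed miRNAs that RefSeq places. RefSeq places 15 pairs of table entries, with a higher partner of at least 10 CPM, on opposite strands with 15 or more shared bases. Other entries with near-equal counts were not among the 15, such as miR-126a-5p with miR-126b-3p and miR-1a-3p with miR-1b-5p. The shares below therefore hold for these 15 pairs alone. In 7 of the 15 the lower partner held at least 97% of the reads of the higher in every library. The pairs of miR-24-3p and miR-24-2-5p were among these 7. In the other 8 its mean share was at most 26.2%. The pair of miR-24-1-5p and miR-3074-1-3p was not among the 15, because RefSeq held no mature miR-3074-1-3p. At 77.8% to 95.3% over the libraries of both genotypes, it lay between these 2 groups. At the miR-9 locus, for comparison, miR-9b-3p held 99.65% to 99.75% of miR-9-5p in KO, against 99.70% to 99.72% in WT, whereas on the other arm miR-9b-5p held 2.29% to 3.03% of miR-9-3p in KO, against 2.36% to 2.72% in WT. Of the miR-24 arms, miR-24-2-5p of chromosome 8 was near-equal to its opposed strand, as was miR-24-3p, whose reads cannot be assigned to either cluster.

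**Figure D2:**
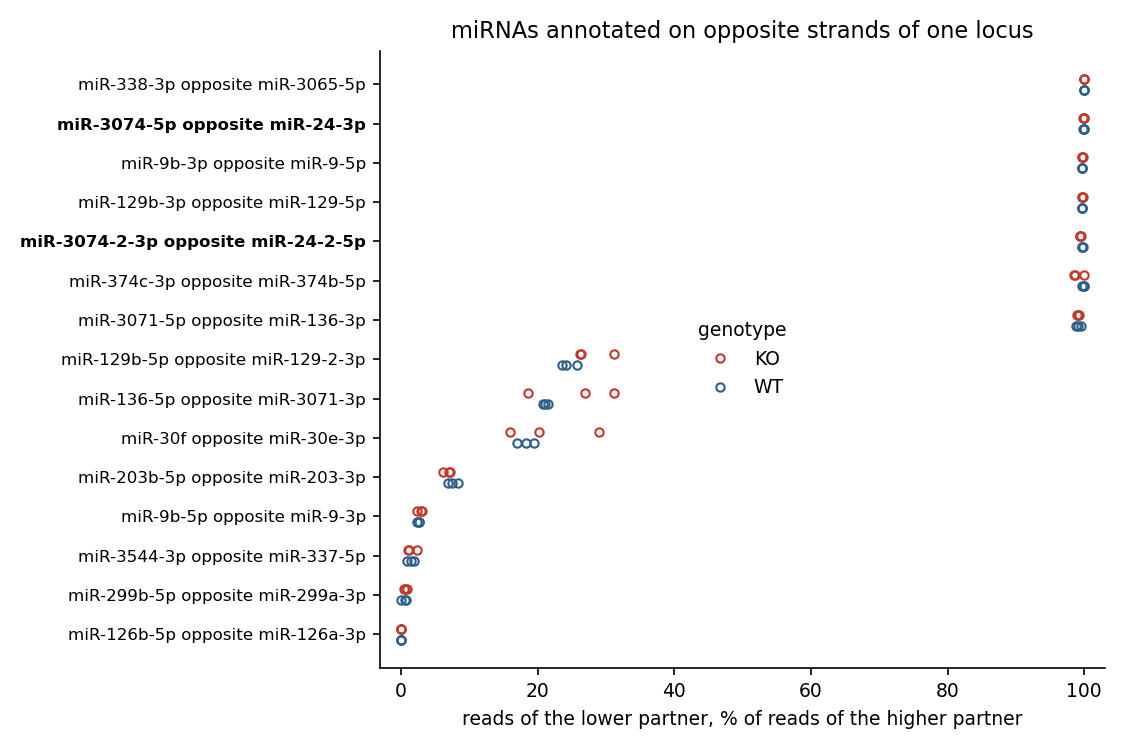
Reads of the lower partner as a percent of the higher for 15 pairs of miRNAs annotated on opposite strands, with KO libraries in red and WT libraries in blue. The 2 miR-3074 pairs among them, in bold, sit with 5 others close to 100%, and the other 8 pairs have mean shares of at most 26.2%. The pair of miR-24-1-5p and miR-3074-1-3p, at 77.8% to 95.3%, is not among the 15.

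Between genotypes, none of the 9 products passed the test at an adjusted p of 0.05. The background was the same, with 0 of 541 miRNAs (0%) called by edgeR's quasi-likelihood test with Benjamini-Hochberg adjustment, and 0 by DESeq2 and by limma-voom. At an unadjusted p under 0.05, edgeR found 35 of 541 miRNAs (6.47%), DESeq2, run without the filter, 40 of 1182, and limma-voom 33 of 541. At that level edgeR found 1 of the 9 products, miR-27a-3p. KO and WT libraries did not overlap for 3 of the 9, against 85 of 541 (15.7%) among all miRNAs. Of these, miR-27a-3p was lower in KO, as were 57 of 541 (10.5%), and miR-24-3p and miR-3074-5p, whose counts are near-equal, were higher, as were 28 of 541 (5.18%). The fold changes were above 0 for 5 products and below 0 for 4, with a median log2 fold change of 0.06 over the 9 and 0.03 over all tested. The 5 include miR-3074-5p and miR-3074-2-3p, whose counts nearly repeat those of miR-24-3p and miR-24-2-5p. The median of 0.06 is itself the value of miR-3074-2-3p, so neither the tally nor the median gives a direction for the 9. Without KO replicate 3 edgeR called 18 of 560 miRNAs (3.21%), and 0 of the 9 products.

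The miR-27 guides had lower means in KO. In CPM, miR-27a-3p stood at 77.1, 95.05 and 79.96 in the KO libraries, against 121, 128 and 98.5 in the WT libraries. All 3 KO values lay below all 3 WT values, though KO replicate 2 and WT replicate 3 were close. Its mean was 84.0 ± 9.63 CPM in KO, against 116 ± 15.4 CPM in WT (SD, n = 3 each), giving a log2 fold change of -0.46 with an SE of 0.20 and a 95% interval from -0.92 to -0.01, with an adjusted p of 0.747 in edgeR and an unadjusted p of 0.047. By unadjusted p it ranked 34th of 541. Under the alternatives its unadjusted p in edgeR fell on both sides of 0.05, from 0.022 without KO replicate 3 to 0.189 without WT replicate 2. On library totals alone it was 0.083. The groups overlapped under a scaling that left out the 5 most abundant miRNAs, where KO replicate 3 had 94.5 CPM and WT replicate 3 had 93.8 CPM. Without WT replicate 2 the log2 fold change was -0.36, and without KO replicate 2 it was -0.60.

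The abundant paralog miR-27b-3p stood at 3189, 3810 and 2478 CPM in the KO libraries, against 3639, 3817 and 3179 CPM in the WT libraries. KO replicate 3 was the lowest library and KO replicates 1 and 2 lay within the WT range, so the groups overlapped. The means were 3159 ± 667 CPM in KO, against 3545 ± 329 CPM in WT (SD, n = 3 each), with a log2 fold change of -0.17 (SE 0.18, adjusted p = 0.828, edgeR). The log2 fold change was -0.00028 without KO replicate 3 and -0.37 without KO replicate 2 (adjusted p = 0.498, edgeR), so its size depended on which KO library was left out. Summed, the miR-27 guides that share the seed UCACAGU had 3266, 3905 and 2558 CPM in KO, against 3760, 3945 and 3278 CPM in WT.

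The miR-23 guides had KO means slightly below those of WT. Levels of miR-23a-3p were 35.8, 44.5 and 54.6 CPM in the KO libraries, against 54.3, 54.0 and 51.6 CPM in the WT libraries. The WT values were tight and the KO values wide, with KO replicate 3 above every WT library. The log2 fold change was -0.25 (SE 0.20, adjusted p = 0.791, edgeR). It was -0.39 without KO replicate 3 and -0.09 without KO replicate 1. For miR-23b-3p the levels were 86.1, 96.98 and 98.7 CPM in KO, against 91.3, 104.0 and 104.2 CPM in WT. These overlapped, with a log2 fold change of -0.09 (SE 0.18, adjusted p = 0.882, edgeR) that was 0.0023 when the 5 most abundant miRNAs were left out of the scaling.

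Summed by cluster, leaving out miR-24-3p because both copies give it, the products miR-23a-3p, miR-27a-3p and miR-24-2-5p of chromosome 8 came to 224, 245 and 233 CPM in the KO libraries, against 281.4, 281.5 and 247 CPM in the WT libraries. On this scale the groups did not overlap, with KO replicate 2 close below WT replicate 3. Under each of the other 3 scalings they overlapped, on library totals at 245.1, 202.4 and 252.6 CPM in KO, against 289.7, 289.1 and 238.6 CPM in WT. On chromosome 13, miR-23b-3p, miR-27b-3p and miR-24-1-5p came to 3302, 3930 and 2591 CPM in KO, against 3749, 3940 and 3302 CPM in WT. That sum is mostly miR-27b-3p, and its groups overlapped.

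The miR-24 guide had a higher mean in KO. Levels of miR-24-3p were 5129, 5158 and 5621 CPM in the KO libraries, against 4811, 4613 and 4813 CPM in the WT libraries. Every KO library was above every WT library on this scale. Means were 5303 ± 276 CPM in KO, against 4746 ± 114 CPM in WT (SD, n = 3 each), giving a log2 fold change of 0.16 with an SE of 0.13 and a 95% interval from -0.13 to 0.45, with an adjusted p of 0.791 in edgeR. On library totals alone the groups overlapped, at 5599, 4263 and 6099 CPM in KO, against 4951, 4738 and 4651 CPM in WT, so the separation depended on the scaling. For miR-3074-5p the log2 fold change was likewise 0.16.

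The 5p strands of miR-24, usually the less stable strands, did not separate the genotypes. Levels of miR-24-2-5p were 112, 105 and 98.3 CPM in the KO libraries, against 106, 99.6 and 96.7 CPM in the WT libraries, with a log2 fold change of 0.06 (SE 0.18, adjusted p = 0.904, edgeR), and of 0.12 without KO replicate 3. Those of miR-24-1-5p were 26.5, 23.1 and 14.8 CPM in KO, against 18.2, 18.8 and 19.0 CPM in WT. Its KO libraries lay on both sides of a narrow WT range, and the log2 fold change was 0.20 (SE 0.25, adjusted p = 0.850, edgeR), 0.43 without KO replicate 3 and 0.04 without KO replicate 1. For miR-3074-2-3p the log2 fold change was 0.06 (SE 0.18), also 0.12 without KO replicate 3.

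**Figure D3:**
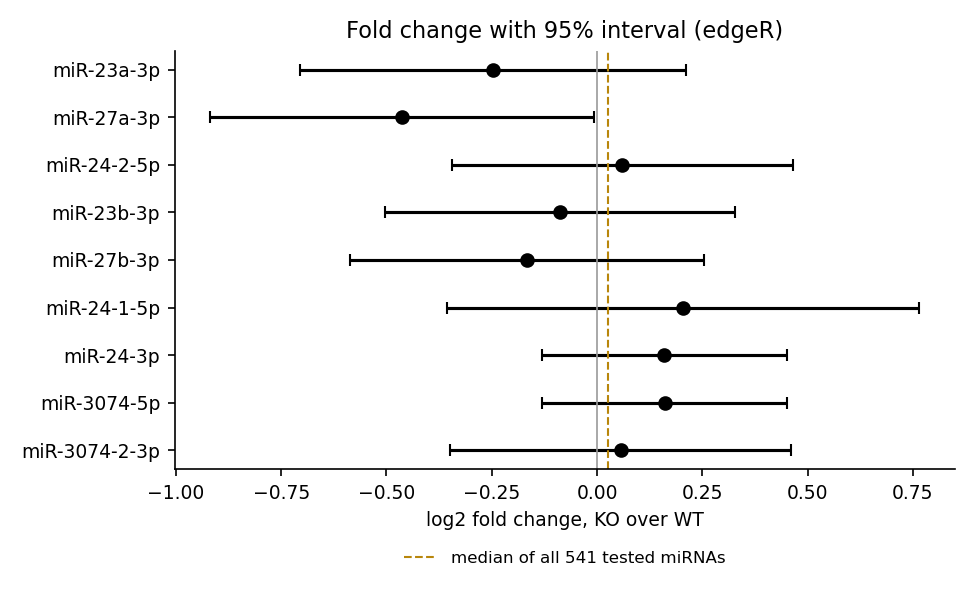
Log2 fold change of each product, KO over WT, with its 95% interval from edgeR; the dashed line is the median of all 541 tested miRNAs, 0.03. In this fit, with all 6 libraries and TMM, the interval of miR-27a-3p, from -0.92 to -0.01, is the one that does not include 0.

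Ratios between products within a library need no scaling and were compared by exact two-sided permutation tests, 8 in all, whose smallest possible p is 0.1. There were 41.4, 40.1 and 31.0 reads of miR-27b-3p per read of miR-27a-3p in the KO libraries, against 30.01, 29.86 and 32.27 in the WT libraries. KO replicates 1 and 2 were above all WT libraries and KO replicate 3 was within their range (p = 0.2 by the exact test, adjusted p = 0.8 over 8 ratios). For miR-23b-3p over miR-23a-3p the ratios were 2.40, 2.18 and 1.81 in KO, against 1.68, 1.93 and 2.02 in WT (exact permutation p = 0.3, adjusted p = 0.8). Among the 5p strands, miR-24-1-5p stood to miR-24-2-5p as 0.238, 0.220 and 0.151 in KO, against 0.172, 0.189 and 0.197 in WT (exact permutation p = 0.7, adjusted p = 0.8). In these 3 ratios of chromosome 13 over chromosome 8 products, KO replicate 1 was the highest KO library and KO replicate 3 the lowest, and the groups overlapped. Without KO replicate 3 they did not. The log2 difference was then 0.41 for miR-27b-3p over miR-27a-3p, against 0.28 with all libraries. It was 0.29 for miR-23b-3p over miR-23a-3p, against 0.18, and 0.30 for miR-24-1-5p over miR-24-2-5p, against 0.10 (exact permutation p = 0.1 for each, the smallest that 2 against 3 can give here). With KO replicate 1 left out instead, the differences were 0.20, 0.09 and -0.03 in the same order.

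Reads of miR-24 came mostly from the 3p guide in both genotypes. Reads of miR-24-3p exceeded the sum of both 5p strands by 37.1, 40.2 and 49.7 times in the KO libraries and by 38.8, 38.9 and 41.6 times in the WT libraries. The means were 42.3 ± 6.55 in KO, against 39.8 ± 1.58 in WT (n = 3 each, with SD; p = 0.8 by the exact permutation test, adjusted p = 0.8). The within-cluster ratios given above had exact permutation p-values of 0.7 for miR-27b-3p over miR-23b-3p and 0.5 for miR-27a-3p over miR-23a-3p, and miR-3074-5p over miR-24-3p had 0.4 (adjusted p = 0.8 for all 3). As log2 differences, KO minus WT, miR-27a-3p over miR-23a-3p was -0.19 with all libraries and -0.01 without KO replicate 3, miR-27b-3p over miR-23b-3p was -0.10 and 0.10, miR-24-3p over its 5p strands was 0.08 and -0.04, and miR-3074-5p over miR-24-3p was 0.00024 and 0.00042.

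**Figure D4:**
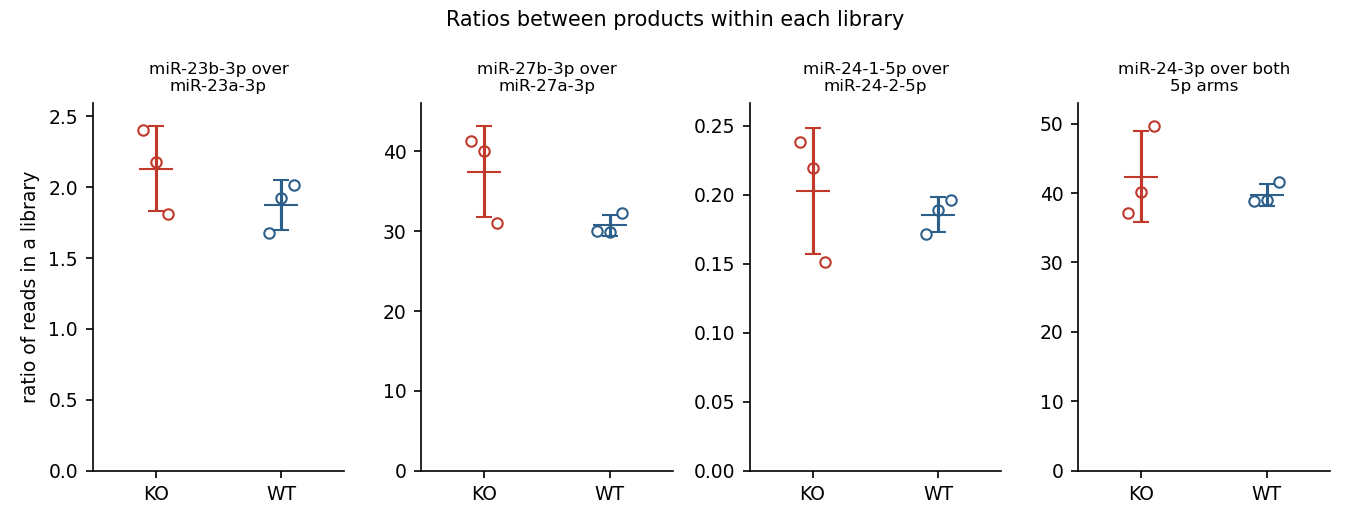
Ratio of reads between products within each library, with KO left of WT; circles are libraries and bars are the mean and SD (n = 3 each). KO and WT overlap in all 4 ratios, such as 31.0 to 41.4 in KO, against 29.9 to 32.3 in WT for miR-27b-3p over miR-27a-3p.

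Of the other 5 arms of these hairpins, 3 reached the count filter and 0 were called. Their log2 fold changes were 0.19 (SE 0.25) for miR-27a-5p, 0.18 (SE 0.27) for miR-27b-5p and 0.15 (SE 0.28) for miR-3074-1-3p, with group ranges that overlapped. In CPM, miR-27a-5p had 21.0, 14.7 and 15.2 in KO, against 11.8, 18.4 and 14.5 in WT, while miR-27b-5p had 15.1, 9.0 and 8.57 in KO, against 10.9, 8.84 and 9.14 in WT. The 5p strands of miR-23 were at the limit of detection, with 0 to 2 reads of miR-23a-5p and 2 to 8 reads of miR-23b-5p per KO library, and 0 or 1 and 1 to 6 reads per WT library.

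The miRNA that ran most in parallel with each product came from outside the clusters, leaving aside the miR-24 and miR-3074 pairs. Likeness was measured as the SD over the 6 libraries of the log2 ratio of a pair, which is small when the pair keeps a constant ratio, among 301 other miRNAs of at least 10 CPM. By this measure miR-27b-3p had its cluster mate miR-23b-3p at rank 90 (SD 0.260) and its paralog miR-27a-3p at rank 58 (SD 0.213). For miR-27a-3p the mate miR-23a-3p ranked 53rd (SD 0.248). For miR-24-3p the 5p strands differed, with miR-24-2-5p ranked 10th (SD 0.124) and miR-24-1-5p ranked 155th (SD 0.326). For miR-24-3p the closest outside miRNA was miR-126a-3p, an endothelial miRNA (SD 0.0490). For the others it was miR-490-3p for miR-23a-3p (SD 0.105), miR-21a-5p for miR-23b-3p (SD 0.0907), miR-181c-3p for miR-27a-3p (SD 0.134), miR-26b-5p for miR-27b-3p (SD 0.0939), miR-221-5p for miR-24-1-5p (SD 0.0787) and miR-582-3p for miR-24-2-5p (SD 0.0679).

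Marker miRNAs of cell types in cortex were read beside these values. Levels of miR-126a-3p were 7641, 7604 and 8001 CPM in the KO libraries, against 7102, 6998 and 7587 CPM in the WT libraries. On this scale it was non-overlapping in the direction of miR-24-3p (log2 fold change 0.10, SE 0.12). The gap was narrow, with KO replicate 2 just above WT replicate 3, and under the other scalings the groups overlapped. As the outside miRNA closest to miR-24-3p in these same libraries, miR-126a-3p gives no separate evidence by sharing its direction. Of the other 5 endothelial and mural miRNAs, miR-143-5p, at 2.73, 3.45 and 2.14 CPM in KO, against 4.78, 4.93 and 4.14 CPM in WT, was non-overlapping in the other direction (log2 fold change -0.73, SE 0.27, adjusted p = 0.705, edgeR). The whole list had 5 of 6 members higher and 0 called, with a summed level of 38494 to 44571 CPM in KO, against 35241 to 42580 CPM in WT. In the list reported from cultured astrocytes (miR-26 and miR-29), 2 of 5 were higher, 3 lower and 0 called, with a sum of 21778 to 30894 CPM in KO, against 32940 to 34529 CPM in WT. That sum is mostly miR-26a-5p, at 23891, 29075 and 19328 CPM in KO, against 31000, 32110 and 32702 CPM in WT. KO replicate 3 had the lowest miR-26a-5p and the lowest miR-27b-3p, and the highest levels of all 3 miR-29 members, such as 1957 CPM of miR-29a-3p, against 1141 and 1407 CPM in the other KO libraries and 1449 to 1673 CPM in WT. It also had the highest choroid plexus and cilia sum, 2119 CPM, against 1022 and 1037 CPM in the other KO libraries and 972 to 1047 CPM in WT. For neuronal miRNAs 3 of 6 were higher and 3 lower, at 119918 to 141117 CPM in KO, against 130711 to 143668 CPM in WT. Median log2 fold changes were 0.12 for the endothelial and mural list, -0.05 for the astrocyte list and -0.04 for the neuronal list, beside 0.03 over all tested. The part of these markers in the miR-24 and miR-27 values was not tested.

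The remaining marker lists also had 0 members called. All 6 tested choroid plexus and cilia miRNAs had a higher mean in KO (median log2 fold change 0.52), with the sum highest in KO replicate 3. All 8 epithelial and sensory miRNAs also had a higher mean in KO (median 1.87), but not through every KO library. Their sums were 61.6, 2051 and 1996 CPM in KO, against 335, 169 and 724 CPM in WT. By this sum KO replicate 1 was below every WT library. In the microglia and leukocyte list 5 of 5 tested were higher (median 0.33), at 195 to 219 CPM in KO, against 171 to 181 CPM in WT. These sums lay apart, but the groups overlapped for each of the 5. The most abundant, miR-146a-5p, had 110, 132 and 62.6 CPM in KO, against 78.3, 81.5 and 81.8 CPM in WT. Erythroid miRNAs were higher in 3 of 4 (median 0.05), at 80.3 to 121 CPM in KO, against 75.4 to 83.4 CPM in WT. Oligodendrocyte miRNAs were lower in 3 of 4 (median -0.16), at 632 to 874 CPM in KO, against 857 to 974 CPM in WT.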

How the data were processed

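Small RNA libraries of whole cortex were read from a single end after adaptor ligation, PCR and gel size selection, per the labels' protocols. Per the submitters' processing notes the tools included Bowtie and DESeq2, and the build was mm10. Trimming, mismatches, multiple matches and strand use are not stated. The deposited table holds read counts per mature miRNA and, per the file headers, TPM, which the authors scaled per library; the TPM values were not used. There were 0 columns without a sample.

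Tests on the counts used edgeR 4.0.16 in R 4.3.3 (filterByExpr with a minimum count of 10, TMM, robust quasi-likelihood test, Benjamini-Hochberg over 541 miRNAs). DESeq2 1.42.0, limma 3.58.1, other scalings and filters, and leaving out each library served as alternatives. Ratios used reads + 0.5 and exact permutation tests.

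The members and the 9 other lists were chosen with earlier results of these data known. Every member, the other arms and the closest outside miRNA of each member were named by rule; miR-9 and miR-9b were chosen after their values were seen. Replicate numbers follow accession order. No label says that each library is a separate animal, so p-values measure the spread between these libraries. Reads carry no molecular identifiers, and levels of different miRNAs compare reads, not molecules.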

Additional observations from a re-analysis of the deposited data

How the results depend on the processing

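Over 133 refits of the 9 fold changes, 132 kept their direction and stayed short of the threshold, with adjusted p-values of at least 0.161. The exception in direction was miR-23b-3p, at 0.0023 under a scaling that left out the 5 most abundant miRNAs. With 1 library left out, the count of called miRNAs ranged from 0 to 18, and the 18 came without KO replicate 3. The miR-24-1-5p over miR-24-2-5p difference ranged from -0.026 to 0.302 in log2 units, that of miR-27b-3p over miR-23b-3p from -0.218 to 0.105, and that of miR-24-3p over its 5p strands from -0.042 to 0.168. The negative value came without KO replicate 1 for the first, and for the others the reversal came without KO replicate 3; the cause was not tested. The other 61 of 64 alternative ratio differences kept their direction. With near-identical pairs counted once, miR-3074-5p and miR-3074-2-3p had no value. No paired analysis was possible because the labels give no numbers shared between genotypes.

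With 3 libraries per genotype the intervals of the 9 fold changes are wide, reaching from -0.36 to 0.77 for miR-24-1-5p.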

Other observations

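The balance of the miR-27a arms, looked at after the values were seen and so given without a test, did not overlap between genotypes. There were 3.67, 6.46 and 5.27 reads of miR-27a-3p per read of miR-27a-5p in the KO libraries and 10.3, 6.94 and 6.78 in the WT libraries. All KO values were below all WT values, with KO replicate 2 and WT replicate 3 close together. For miR-27b the ratio of 3p to 5p was 211, 423 and 289 in the KO libraries and 334, 432 and 348 in the WT libraries, which overlapped.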
